A study of Homo sapiens with 5 samples.

Results

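The 8 genes described here encode enzymes that make, salvage or remove the deoxynucleotides used for DNA synthesis: RRM1, RRM2, TYMS, TK1, DUT, DTYMK, DCK and SAMHD1. They were chosen by name for their function, with earlier results of these data known. All 8 had a value among the 18239 genes read. They were read by 25 probe sets that name only 1 of them, and 0 further probe sets name a member together with another gene. The cells were GFP-SAS, a human squamous cell carcinoma line labelled as of tongue origin, whose name carries that of green fluorescent protein. Cultures received for 24 h siAURKA-1 (10 nM), siAURKA-2 (10 nM), a non-targeting siRNA (siNT), the Aurora A kinase inhibitor MLN8237 (alisertib, 100 nM) or its vehicle DMSO. The siNT dose is not printed, because the labels' wording leaves it unclear. The siRNAs lower the mRNA of AURKA, the mitotic kinase Aurora A, whereas MLN8237 blocks its activity. Each of the 5 treatments was measured on 1 Affymetrix array, so no test of a difference was possible and no value has a replicate error.

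Ribonucleotide reductase removes an oxygen from the ribose of nucleoside diphosphates and so supplies all 4 deoxynucleotides for DNA. Thymidine nucleotides need further steps, because uracil in the deoxynucleotide pool has to be converted to thymine and kept out of DNA. Several of these enzymes are made mainly in S phase under E2F transcription factors, and TYMS and the reductase are targets of drugs used against squamous carcinoma. The salvage kinases TK1 and DCK recycle deoxynucleosides, and SAMHD1 breaks deoxynucleoside triphosphates down again.

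The values are log2 signals that had been centred for each probe set, so that the median over the 5 arrays is 0. They show on which arrays a gene was high or low and give no expression level. A difference is the value on the first-named array minus that on the second. It was taken within each probe set and then summarised as the median over the probe sets of the gene, and for the 8 members it departed by at most 0.09 from the difference of the gene's array values. A gene was counted as lower or higher when it was at least 1.5-fold from its control. AURKA itself, read by a single probe set, was -3.36 with siAURKA-1 and -2.64 with siAURKA-2 relative to siNT, and 0.49 with MLN8237 relative to DMSO. In these bulk cultures fewer cells in S phase and less RNA of a gene per cell cannot be told apart.

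Because 4 members were lower by at least 1.5-fold on the siAURKA-1 array and 2 on the siAURKA-2 array, the start regions of the genes were examined for motifs linked to S-phase genes. The windows are RefSeq sequences on GRCh38.p14 that run from 250 bases before to 50 after an annotated start, and 13 windows matched the 8 genes. Exact matches on either strand were sought for the E2F core (TTCCCGC or TTGGCGC or TTGCCGC or TTCGCGC), for the CCAAT box (CCAAT), bound by NF-Y, and for the GC box (GGGCGG), bound by SP1. The windows of RRM2, TYMS, TK1 and DUT are shown because these genes were lowest on an siRNA array, and that of SAMHD1 because its values varied least over the 5 arrays. Where a gene had several windows, the one with the most E2F and CCAAT matches is shown, with those matches in capitals.
RRM2, GRCh38.p14 chr2:10122489-10122788, plus strand: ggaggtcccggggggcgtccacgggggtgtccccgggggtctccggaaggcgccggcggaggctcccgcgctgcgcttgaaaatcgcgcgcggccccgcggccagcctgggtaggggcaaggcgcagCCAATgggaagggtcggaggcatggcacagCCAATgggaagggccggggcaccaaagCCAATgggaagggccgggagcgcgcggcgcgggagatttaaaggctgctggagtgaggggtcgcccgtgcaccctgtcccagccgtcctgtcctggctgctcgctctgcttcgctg
TYMS, GRCh38.p14 chr18:657403-657702, plus strand: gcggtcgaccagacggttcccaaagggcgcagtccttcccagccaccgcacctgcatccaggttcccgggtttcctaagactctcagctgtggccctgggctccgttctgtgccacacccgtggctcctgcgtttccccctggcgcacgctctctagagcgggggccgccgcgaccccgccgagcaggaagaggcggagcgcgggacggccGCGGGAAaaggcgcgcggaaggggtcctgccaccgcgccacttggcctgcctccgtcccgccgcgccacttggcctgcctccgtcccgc
TK1, GRCh38.p14 chr17:78187003-78187302, minus strand: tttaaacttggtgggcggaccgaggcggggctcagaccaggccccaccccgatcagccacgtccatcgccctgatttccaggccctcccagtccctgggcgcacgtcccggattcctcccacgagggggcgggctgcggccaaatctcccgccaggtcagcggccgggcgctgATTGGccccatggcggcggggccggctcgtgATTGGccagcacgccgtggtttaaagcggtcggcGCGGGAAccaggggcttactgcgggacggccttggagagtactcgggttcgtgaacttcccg
DUT, GRCh38.p14 chr15:48331947-48332246, plus strand: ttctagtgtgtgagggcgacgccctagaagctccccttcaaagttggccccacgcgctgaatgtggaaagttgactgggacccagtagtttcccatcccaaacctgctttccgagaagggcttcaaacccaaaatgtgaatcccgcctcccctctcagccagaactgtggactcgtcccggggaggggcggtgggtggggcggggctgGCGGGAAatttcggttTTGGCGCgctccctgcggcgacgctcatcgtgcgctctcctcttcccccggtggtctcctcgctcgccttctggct
SAMHD1, GRCh38.p14 chr20:36951659-36951958, minus strand: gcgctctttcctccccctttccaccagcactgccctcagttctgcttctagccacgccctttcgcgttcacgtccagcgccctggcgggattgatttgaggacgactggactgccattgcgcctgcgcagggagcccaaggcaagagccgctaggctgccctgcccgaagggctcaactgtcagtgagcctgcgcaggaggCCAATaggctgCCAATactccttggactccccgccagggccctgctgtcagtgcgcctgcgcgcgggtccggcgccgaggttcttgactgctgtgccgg

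The shown RRM2 window held 3 CCAAT boxes, 123, 93 and 66 bases before the start, and 0 E2F cores. A second RRM2 window, lying further upstream, held 1 E2F core. The TYMS window held 1 E2F core, 39 bases before the start, and the TK1 window 1 E2F core at 12 bases and 2 CCAAT boxes in reverse orientation at 77 and 46 bases. The DUT window held 2 E2F cores, 42 and 26 bases before the start, while its other 3 windows held 0. SAMHD1 had 2 CCAAT boxes and 0 E2F cores. In all, 6 of the 8 members had an E2F core in at least 1 window, against 15.3% of all 27305 genes with a window. CCAAT boxes were found in 5 members, against 39.7% of genes, and GC boxes in 6, against 48.3% of genes. Counted by window, 6 of the 13 held an E2F core, against 13.0% of all 35116 windows, 6 a CCAAT box, against 34.6%, and 9 a GC box, against 45.0%. The remaining members were RRM1 with 1 E2F core and 1 CCAAT box, DCK with 3 E2F cores, and DTYMK with 2 CCAAT boxes and 0 E2F cores. These matches describe the letters of the windows, and no binding was measured. The lack of an E2F core for SAMHD1 and DTYMK says only that these letters are absent from the window.

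With siAURKA-1, 4 of the 8 members (TYMS, RRM2, DUT and TK1) were at least 1.5-fold lower than with siNT, where 4.58% of all genes were, and 0 were at least 1.5-fold higher, where 2.57% of all genes were. At 2-fold TYMS alone was lower, where 1.41% of all genes were. The members' median difference was -0.61, against 0.00 for all genes. With siAURKA-2, 2 of 8 (DUT and RRM2) were lower by that size, where 3.2% of all genes were, and 0 were higher, where 2.01% were. At 2-fold DUT alone was lower, where 0.861% of all genes were. The median was -0.33, against 0.00 for all genes. With MLN8237 0 of 8 were lower than DMSO by that size, where 0.115% of all genes were, and 0 were higher, where 0.351% were. The median was -0.12, against 0.00 for all genes. At a looser threshold, a log2 difference of 0.32, 7 members were lower for siAURKA-1, where 9.91% of all genes were, 5 for siAURKA-2, where 8.22% were, and DUT alone for MLN8237, where 1.19% were. Between the controls, siNT minus DMSO, 0 of 8 were lower by at least 1.5-fold, where 0.581% of all genes were. Likewise 0 were higher, where 1.58% were. The members' median was -0.23, against 0.00 for all genes. At the looser threshold 3 were lower, where 2.83% of all genes were. Both siRNA comparisons use the same siNT array, and no array was repeated.

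**Figure D1:**
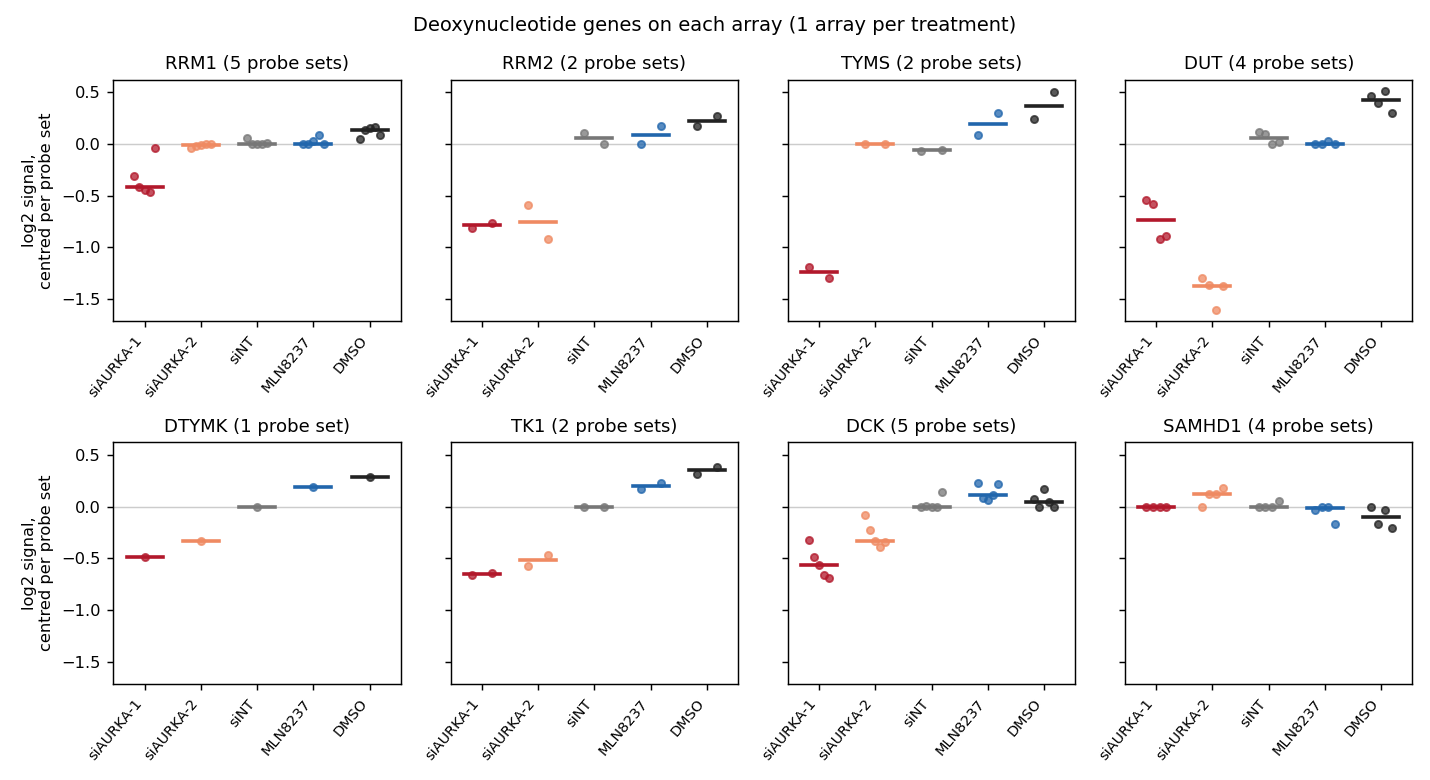
Log2 signal, centred per probe set, of each member on the siAURKA-1, siAURKA-2, siNT, MLN8237 and DMSO arrays. Points are probe sets and bars are their median; RRM2, TK1 and DUT are low on both AURKA siRNA arrays, TYMS on the siAURKA-1 array at -1.24, and SAMHD1 varies by 0.22 in all.

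Ribonucleotide reductase consists of a large subunit, RRM1, which carries the catalytic site, and a small subunit, RRM2, which carries the radical and is made in S phase. RRM2 had values of -0.79 with siAURKA-1, -0.76 with siAURKA-2, 0.05 with siNT, 0.09 with MLN8237 and 0.22 with DMSO. Both AURKA siRNA arrays lay well below the other 3. Relative to siNT, RRM2 was 1.79-fold lower on the siAURKA-1 array (-0.84) and 1.76-fold lower on the siAURKA-2 array (-0.81). The 2 RRM2 probe sets gave -0.92 and -0.77 with siAURKA-1, and -0.70 and -0.93 with siAURKA-2. Each probe set was past 1.5-fold in both comparisons, yet they placed the siRNAs in opposite order, so the arrays of the siRNAs were level for this gene (-0.03). With MLN8237, RRM2 was -0.14 relative to DMSO.

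RRM1 varied less and separated the siRNAs. Its values were -0.42 with siAURKA-1, -0.01 with siAURKA-2, 0.00 with siNT, 0.00 with MLN8237 and 0.14 with DMSO. The siAURKA-1 array alone stood below the rest. It was 1.34-fold lower than siNT (-0.42), short of 1.5-fold, and all 5 probe sets were below siNT, between -0.47 and -0.05. With siAURKA-2 RRM1 was level with siNT (-0.01), and with MLN8237 it was -0.08 relative to DMSO. The partner subunit RRM2B, which replaces RRM2 outside S phase and is a p53 target, lay at 0.17 for siAURKA-1 and 0.00 for siAURKA-2, both relative to siNT, and at 0.15 for MLN8237 relative to DMSO, as the median of 9 probe sets. The probe set of RRM2B with the widest range, taken alone, gave 0.86 for siAURKA-1, past 1.5-fold, and 0.24 for siAURKA-2.

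Thymidylate synthesis starts from dUMP. TYMS, thymidylate synthase, methylates dUMP to dTMP with a folate as methyl donor. Its values were -1.24 with siAURKA-1, 0.00 with siAURKA-2, -0.06 with siNT, 0.19 with MLN8237 and 0.37 with DMSO. The siAURKA-1 array was far below the other 4, which lay within 0.43 of each other. Relative to siNT, TYMS was 2.27-fold lower on the siAURKA-1 array (-1.18), that is 44.1% of the siNT signal, and its 2 probe sets gave -1.12 and -1.24. With siAURKA-2 the difference from siNT was 0.06, with probe sets at 0.06 and 0.07. Set directly against each other, siAURKA-1 lay 2.36-fold below siAURKA-2 (-1.24). MLN8237 gave -0.18 relative to DMSO.

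DUT showed the opposite order of the siRNAs. It encodes dUTPase, which hydrolyses dUTP to dUMP, both feeding TYMS and keeping uracil out of DNA. Its values were -0.74 with siAURKA-1, -1.37 with siAURKA-2, 0.06 with siNT, 0.00 with MLN8237 and 0.43 with DMSO, the widest range of any member (1.80). Relative to siNT, DUT was 1.73-fold lower on the siAURKA-1 array (-0.79) and 2.70-fold lower on the siAURKA-2 array (-1.44). All 4 probe sets were past 1.5-fold with either siRNA, between -0.92 and -0.66 with siAURKA-1 and between -1.61 and -1.40 with siAURKA-2. Among all 18239 genes it was the 33rd lowest with siAURKA-2. Directly compared, siAURKA-1 lay 1.65-fold above siAURKA-2 (0.72), with 3 of the 4 probe sets past 1.5-fold and the fourth at 0.48.

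DUT also had the largest difference of the members with the kinase inhibitor. It was 1.35-fold lower with MLN8237 than with DMSO (-0.43), and its 4 probe sets lay between -0.49 and -0.30. This was short of 1.5-fold but the 72nd lowest of all genes, since few genes differed much between these arrays. On the DMSO array DUT was above all other arrays, however, and against siNT the MLN8237 array gave -0.06. DUT thus reads as lower with the inhibitor against its vehicle and near level against siNT. The comparison with siNT also holds whatever transfection itself does, which was not tested. Between the controls, siNT minus DMSO, DUT was -0.32.

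The next step differed less. DTYMK, thymidylate kinase, phosphorylates dTMP to dTDP and is read by a single probe set. Its values were -0.49 with siAURKA-1, -0.33 with siAURKA-2, 0.00 with siNT, 0.19 with MLN8237 and 0.29 with DMSO. The arrays of both AURKA siRNAs were the lowest, at 1.41-fold and 1.26-fold below siNT (-0.49 and -0.33), neither past 1.5-fold. MLN8237 gave -0.10 relative to DMSO.

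**Figure D2:**
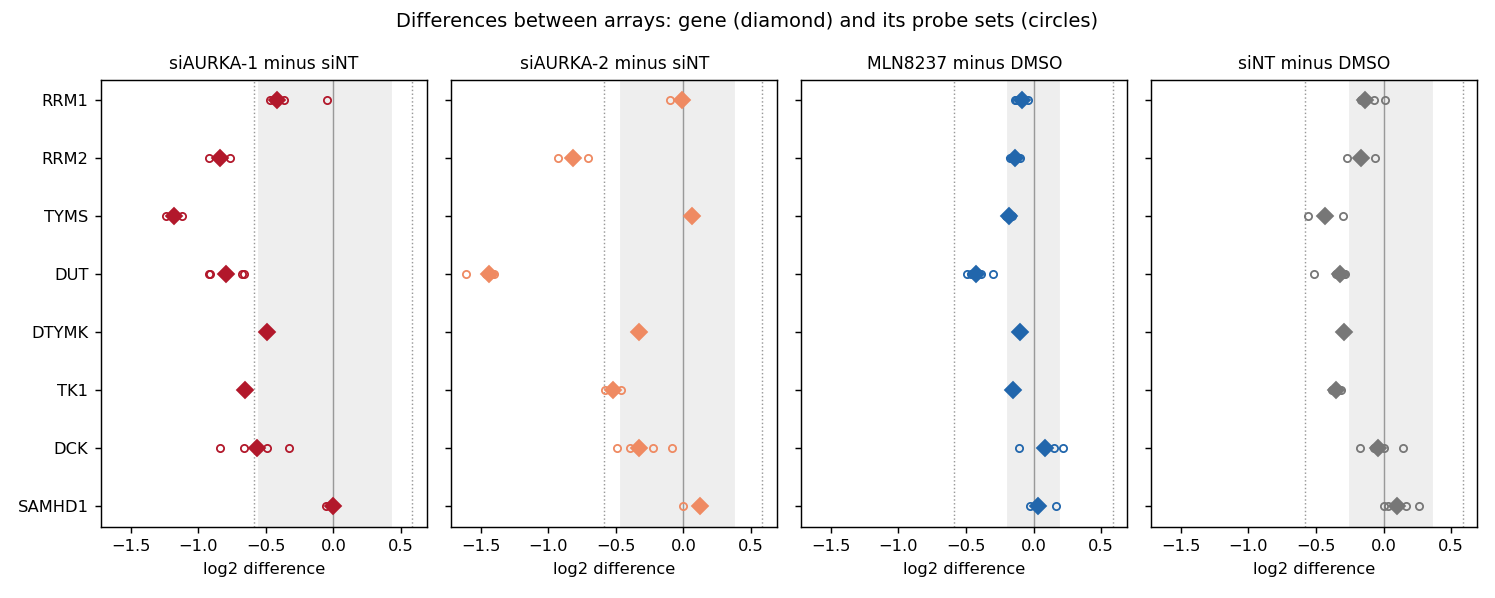
Log2 differences in 4 comparisons, each array named first in a panel title minus the one named second. Diamonds are genes, circles their probe sets, the grey band holds all genes but the lowest 5% and highest 5% and dotted lines mark 1.5-fold; in the siAURKA-1 panel TYMS is at -1.18 and DUT at -0.79, in the siAURKA-2 panel they are at 0.06 and -1.44.

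Of the salvage kinases, TK1 with siAURKA-1 was past 1.5-fold and the other values fell short of it. TK1, the cytosolic thymidine kinase of S phase, returns thymidine to dTMP. Its values were -0.66 with siAURKA-1, -0.52 with siAURKA-2, 0.00 with siNT, 0.20 with MLN8237 and 0.35 with DMSO. The 5 arrays formed a low pair with the AURKA siRNAs and a higher set of 3. Relative to siNT, TK1 was 1.58-fold lower on the siAURKA-1 array (-0.66) and 1.44-fold lower on the siAURKA-2 array (-0.52), which is just short of 1.5-fold. Its probe sets gave -0.67 and -0.65 with siAURKA-1, and -0.58 and -0.47 with siAURKA-2. With MLN8237 the difference from DMSO was -0.15.

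DCK, deoxycytidine kinase, phosphorylates deoxycytidine and the purine deoxynucleosides and activates drugs such as gemcitabine and cytarabine. Its values were -0.57 with siAURKA-1, -0.33 with siAURKA-2, 0.00 with siNT, 0.11 with MLN8237 and 0.04 with DMSO. Relative to siNT it was 1.48-fold lower on the siAURKA-1 array (-0.57) and 1.26-fold lower on the siAURKA-2 array (-0.33). All 5 probe sets were below siNT with either siRNA, but they spread from -0.84 to -0.33 with siAURKA-1, where 2 of them passed 1.5-fold, and from -0.49 to -0.08 with siAURKA-2. DCK was the member that lay highest with MLN8237 (0.09 relative to DMSO), with 4 of 5 probe sets above DMSO.

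SAMHD1, the triphosphohydrolase that degrades deoxynucleoside triphosphates, was the member that varied least over the 5 arrays. Its values were 0.00 with siAURKA-1, 0.12 with siAURKA-2, 0.00 with siNT, -0.01 with MLN8237 and -0.10 with DMSO. The largest gap between any arrays was 0.22. Its differences were 0.00 with siAURKA-1 and 0.12 with siAURKA-2 relative to siNT, and 0.03 with MLN8237 relative to DMSO, and none of its 4 probe sets was past 1.5-fold in any of these comparisons. Without an expression level it cannot be said whether SAMHD1 signal stood above background. SAMHD1 is interferon-inducible in some cells. Of 11 measured interferon-induced genes, 3 were at least 1.5-fold above siNT on the siAURKA-2 array, where 2.01% of all genes were. They were IFIT2 (1.42), IFI6 (0.62) and IFIT3 (0.62), of which IFI6 and IFIT3 are read by 1 probe set each. The list median was 0.14 and the others fell short of 1.5-fold. With siAURKA-1 0 of the 11 were at least 1.5-fold above siNT, where 2.57% of all genes were. The same 3 genes then gave 0.14, 0.33 and -0.17. Relative to DMSO, IFI6 gave 0.46 with siAURKA-2, short of 1.5-fold.

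Agreement between probe sets was examined for the 7 members that have several. In the siAURKA-1 comparison all probe sets shared the direction of the gene for 6 of the 7, and in the siAURKA-2 comparison for 5. The exceptions were SAMHD1, with both siRNAs, and RRM1 with siAURKA-2, and each of these gene values was at or below 0.12 in size. Of the 25 probe sets, 12 were lower by at least 1.5-fold and 0 higher with siAURKA-1, and 6 were lower and 0 higher with siAURKA-2. All 4 DUT probe sets are in both counts of lower probe sets. Probe sets of 1 gene on 1 array are not independent readings. No share over all probe sets, or over all genes with several, was computed for these counts. With MLN8237 18 of the 25 probe sets were below DMSO, with 0 past 1.5-fold. By gene, 6 of the 8 members were below DMSO, where 8671 of all 18239 genes were.

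The choice of control shifted the members as a group. Apart from SAMHD1 (0.10), the siNT array gave lower values than DMSO for the 7 other members, where 7415 of all 18239 genes were lower. TYMS differed most (-0.43), followed by TK1 (-0.35), DUT (-0.32), DTYMK (-0.29), RRM2 (-0.17), RRM1 (-0.14) and DCK (-0.04). Against DMSO, siAURKA-1 had 6 members lower by at least 1.5-fold, where 3.64% of all genes were, and 0 higher, where 3.35% were. Likewise 4 were lower with siAURKA-2, where 2.6% of all genes were, and 0 higher, where 2.68% were. The siAURKA-1 values relative to DMSO were -1.61 for TYMS, -1.10 for DUT, -1.01 for RRM2 and -1.01 for TK1. DTYMK gave -0.78 and DCK -0.69, both short of 1.5-fold when set against siNT. With siAURKA-2 DUT was -1.76, RRM2 -0.98, TK1 -0.87, DTYMK -0.62 and TYMS -0.37. A comparison with DMSO also holds whatever transfection itself does, which was not tested.

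**Figure D3:**
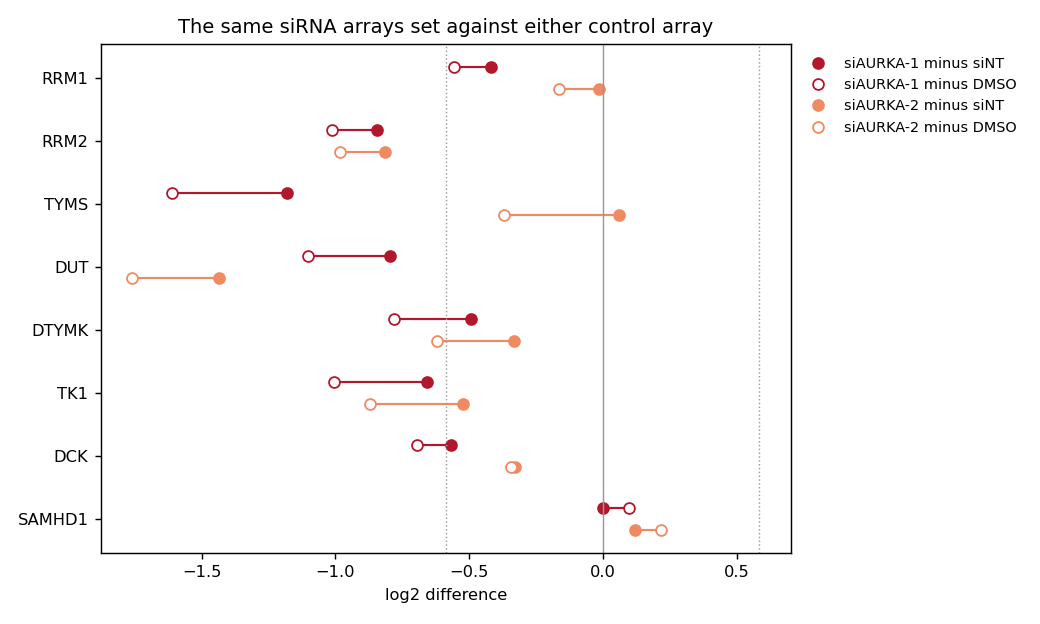
Log2 differences of the siAURKA-1 and siAURKA-2 arrays from siNT (filled circles) and from DMSO (open circles) for each member, with dotted lines at 1.5-fold. Open circles lie left of filled circles for 7 members and right for SAMHD1; TYMS with siAURKA-2 is at 0.06 against siNT and -0.37 against DMSO.

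The siAURKA-1 and siAURKA-2 arrays were also compared directly, without a control. Of the 8 members, TYMS was at least 1.5-fold lower with siAURKA-1 (-1.24), where 4% of all genes were, and DUT at least 1.5-fold higher (0.72), where 3.73% were. RRM1 (-0.39), DCK (-0.26), DTYMK (-0.16), TK1 (-0.13), SAMHD1 (-0.12) and RRM2 (-0.03) lay between. DUT and TYMS, which act in succession, thus differed between the reagents in opposite directions. At the looser threshold 2 members, TYMS and RRM1, were lower on the siAURKA-1 array, where 9.21% of all genes were. The median was -0.15, against 0.00 for all genes.

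Other enzymes of deoxynucleotide metabolism had medians near 0, as all genes did. Over 17 measured genes outside the 8, the siAURKA-1 median was 0.03. None was past 1.5-fold (0 lower and 0 higher), where 4.58% of all genes were lower and 2.57% higher. With siAURKA-2 the median was 0.00 and 1 was lower, where 3.2% of all genes were. This was TK2, the mitochondrial thymidine kinase (-0.68, and 0.08 with siAURKA-1). Relative to DMSO, TK2 with siAURKA-2 was at -0.27, short of 1.5-fold. Against that control 1 of the 17 was lower with siAURKA-1, where 3.64% of all genes were. With siAURKA-2 1 was lower too, where 2.6% were. The list medians against DMSO were 0.05 and -0.04. DCTD, which deaminates dCMP to dUMP, stayed near its controls (siAURKA-1 0.09, siAURKA-2 0.22, MLN8237 0.06).

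A list of folate one-carbon genes had a median of -0.12 with either siRNA over 10 measured genes. On the siAURKA-1 array 3 were lower by at least 1.5-fold and 0 higher, where 4.58% and 2.57% of all genes were. With siAURKA-2 1 was lower and 0 higher, where 3.2% and 2.01% of all genes were. MTHFD2, a mitochondrial folate dehydrogenase, was lower with both (-1.37 and -0.70), but with siAURKA-2 relative to DMSO it gave -0.50. MTHFD1L, which releases formate from mitochondria, gave -0.64 and -0.57. Its value on the siAURKA-1 array depended on the probe sets, with -0.95 for their mean, -1.25 without _x_at and _s_at probe sets and -1.93 for the probe set of widest range. With siAURKA-2 these settings gave -0.66, -0.75 and -0.95 for MTHFD1L, each past 1.5-fold, and relative to DMSO it gave -0.86. SHMT2, which takes the carbon from serine, gave -0.61 and -0.31.

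Nucleotide synthesis upstream of the reductase was mixed. Of 8 pyrimidine enzymes 1 was lower on the siAURKA-1 array, where 4.58% of all genes were, and 0 on the siAURKA-2 array, where 3.2% were. The lower gene was CAD, which carries out the first steps of the route. Read by 1 probe set, it gave -0.89 and -0.38, and -0.35 with MLN8237. Of 13 purine enzymes, 2 were lower and 1 higher with siAURKA-1, where 4.58% and 2.57% of all genes were. On the siAURKA-2 array 4 were lower and 0 higher, where 3.2% and 2.01% of all genes were, and the median was -0.38. IMPDH2, which commits IMP to guanine nucleotides, was at -0.77 for siAURKA-1 and -0.46 for siAURKA-2. ADSS1, an adenylosuccinate synthase, is read by 1 probe set. It gave 0.80 and 0.40, and 0.53 with siAURKA-1 relative to DMSO, short of 1.5-fold. The siAURKA-2 array was lower for PRPS1, which makes the activated ribose (-0.93, and -0.19 with siAURKA-1), PPAT, the first enzyme of the purine route (-0.69, and 0.04), and IMPDH1 (-0.66, and 0.16). Relative to DMSO, PPAT on the siAURKA-2 array fell just short of 1.5-fold at -0.57.

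Regulators and electron donors of the reductase made up the last list, with 12 measured genes. On the siAURKA-1 array 2 were lower by at least 1.5-fold and 0 higher, where 4.58% and 2.57% of all genes were. The 2 lower genes were E2F1, an activator of S-phase genes (-0.85, and -0.15 with siAURKA-2), and E2F8, a repressor of the same family (-1.01, and -0.23). E2F1 is read by 1 probe set. With siAURKA-2 1 was lower, where 3.2% of all genes were. This was GLRX, a glutaredoxin that can reduce the enzyme (-0.72, and 0.12 with siAURKA-1). Relative to DMSO, GLRX gave -0.54 with siAURKA-2. CCNF, cyclin F, which directs RRM2 to degradation, gave 0.05, -0.03 and, with MLN8237, 0.13. Over the 5 lists together, 8 of 60 measured genes were lower and 1 higher with siAURKA-1, where 4.58% and 2.57% of all genes were. On the siAURKA-2 array 7 were lower and 0 higher, where 3.2% and 2.01% of all genes were. With MLN8237 0 were past 1.5-fold, where 0.115% of all genes were lower and 0.351% higher.

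**Figure D4:**
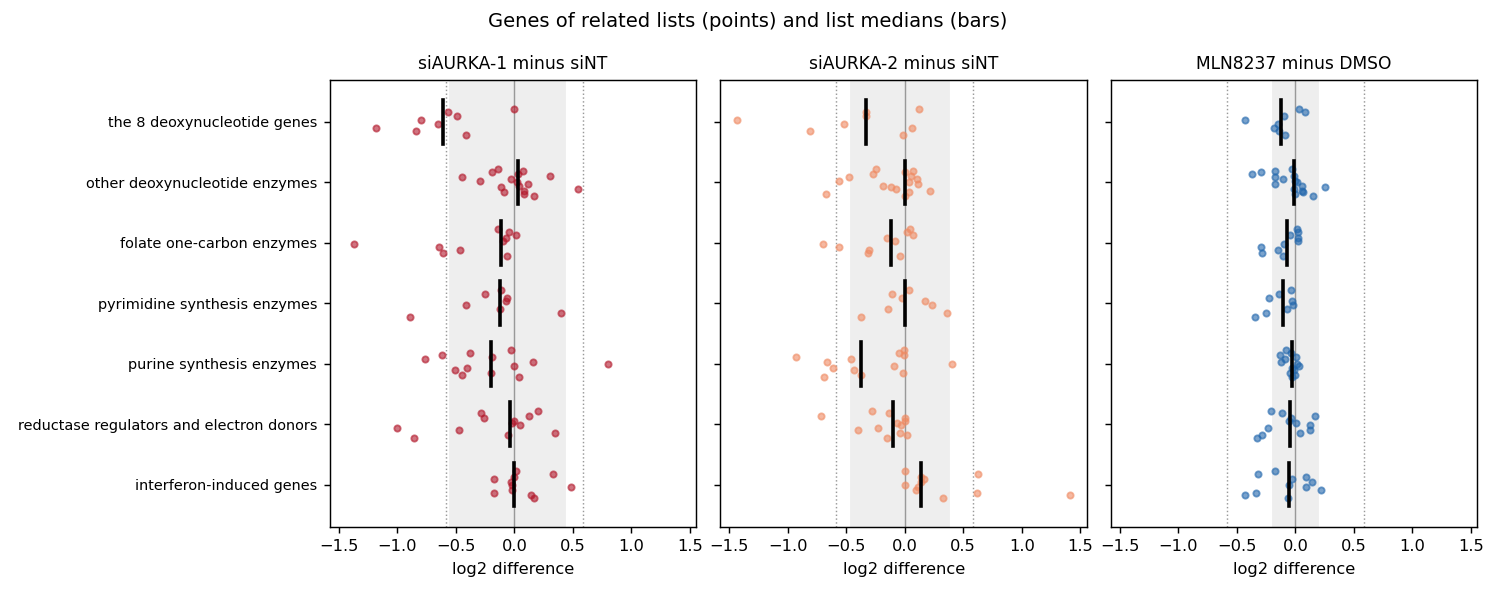
Log2 differences of each gene (points) and list medians (bars) for the 8 members, the 5 related lists and interferon-induced genes, with siAURKA-1 and siAURKA-2 relative to siNT and MLN8237 relative to DMSO. Grey bands hold all genes but the lowest 5% and highest 5%; the members' median is -0.61 with siAURKA-1, left of the other lists, and -0.33 with siAURKA-2, where the purine list lies further left at -0.38.

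The genes whose pattern over the 5 arrays was most like that of the members with the widest range were found by the smallest mean absolute difference of values, each gene centred on its own mean. For TYMS these were MND1, a meiotic recombination factor (0.07), CENPX, a centromere and Fanconi anaemia factor (0.08), the host gene of a microRNA, MIR9-1HG (0.08), the kinetochore gene CENPH (0.08) and LYRM1 (0.09). For DUT they were TMEM183A (0.16), the condensin subunit NCAPD3 (0.17), the kinesin KIF1C (0.17), L3HYPDH (0.18) and the DNA damage recognition gene DDB2 (0.19). RRM2 was the 12th nearest to DUT (0.21) and TK1 the 36th (0.26), whereas TYMS was 0.48 from DUT. The likeness is over 5 arrays of 1 culture each and describes only these arrays.

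Marker genes bear on the label of the cells only as differences, because centring left no level, so the presence of squamous markers could not be checked. Of 10 squamous epithelial markers 7 were measured, with differences between -0.17 (DSG3) and 0.60 (CDH1) for siAURKA-1 and between -1.82 (KRT5) and -0.03 (EPCAM) for siAURKA-2. KRT5 was 0.32 with siAURKA-1 and CDH1 was -0.46 with siAURKA-2, and the other 5 lay between -0.22 and -0.03 with siAURKA-2. Only 1 of the 2 CDH1 probe sets was below siNT with siAURKA-2. Relative to DMSO, CDH1 gave 0.52 with siAURKA-1, short of 1.5-fold. Of 10 leukocyte markers 9 were measured, and their differences lay between -0.17 and 0.08 with siAURKA-1 and between -0.14 and 0.06 with siAURKA-2. The 10 fibroblast and endothelial markers lay between -0.03 and 0.12 with siAURKA-1 and between -0.04 and 0.08 with siAURKA-2. The part of the KRT5 and CDH1 differences in the DUT and TYMS results was not tested. The values of all probe sets had a standard deviation of 0.29 on the siAURKA-1 array, 0.25 on siAURKA-2, 0.17 on siNT, 0.12 on MLN8237 and 0.14 on DMSO.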

How the data were processed

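Total RNA of GFP-SAS cells was measured on 5 Affymetrix arrays, 1 per treatment named in the labels. The deposited values were read here as log2 signal after robust multi-array average (RMA), which the submitters' processing notes name; for the log base, the software version and the centring step, nothing is given in the sources used here. The values show the centring: in all 49386 probe sets the arrays had a median of exactly 0, and 52.1% of probe sets were at 0 on 2 or more arrays.

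Of the probe sets, 45259 named 1 gene, 1327 several, and 2713 had no listed gene; 45178 matched the current gene table by Entrez number. Differences were taken per probe set and summarised by the gene's median (18239 genes, 6416 with 1 probe set) with Python 3.11.15 and pandas 2.3.3, and the calculation was tested on simulated data. With 1 array per group no test was run, and the number of arrays limits precision. Genes at least 1.5-fold apart were counted, with 2-fold and a looser threshold as alternatives, besides other summaries of probe sets and other controls. The members and lists were chosen with earlier results of these data known. Named from each list were at most 5 genes past 1.5-fold in any treatment comparison, beside AURKA, RRM2B, DCTD, CAD, E2F1 and CCNF, and the 5 nearest genes of the 2 members with the widest range. One further gene of that rule is not reported here. No filter on dim genes was possible without levels.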

Additional observations from a re-analysis of the deposited data

Results flagged for a closer look

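TYMS was singled out because the siRNAs against the same mRNA gave opposite signs relative to siNT, with siAURKA-1 at -1.18 and siAURKA-2 at 0.061. The difference between them was not tested, since each is 1 array, and the siAURKA-2 value is small.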

How the results depend on the processing

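A median counted as moved at 0.1 or more on the log2 scale and a count at over 1.5 times. No paired analysis was possible because each group is 1 array. No value of a member past 1.5-fold changed sign under any alternative that was run. At 2-fold the number of lower members was 1 for siAURKA-1 and 1 for siAURKA-2, and no member was higher with siAURKA-1 than with siAURKA-2 (0); the related lists then had 2 lower and 0 higher with siAURKA-1, 0 lower with siAURKA-2, 0 lower between the controls, and 0 lower and 0 higher between the siRNAs. At a looser threshold, a log2 difference of 0.32, 7 members were lower for siAURKA-1, 5 for siAURKA-2, 1 for MLN8237, 3 between the controls and 2 between the siRNAs, where 9.91%, 8.22%, 1.19%, 2.83% and 9.21% of all genes were. The related lists then had 16 lower and 4 higher with siAURKA-1, 15 lower and 2 higher with siAURKA-2, and 3 lower and 0 higher with MLN8237. They had 2 lower and 3 higher between the controls, and 8 lower and 9 higher between the siRNAs. All-gene shares of higher genes were not computed at this threshold. Against the other control the members' median was -0.89 with siAURKA-1, -0.50 with siAURKA-2 (4 members lower) and 0.057 with MLN8237. Related genes higher with siAURKA-1 then numbered 0. In that setting ADSS1 and CDH1 with siAURKA-1 were short of 1.5-fold, as were TK2, MTHFD2, PPAT, GLRX and IFI6 with siAURKA-2. Against the mean of both controls the medians were -0.74, -0.45 and 0.008237 for the same 3 treatments. With the probe set of widest range the related lists had 2 higher with siAURKA-1, 12 lower with siAURKA-2 and 1 higher between the controls. In that setting 12 member values moved and 28 did not. Lower members with siAURKA-1 then numbered 5, with DCK at -0.84. All-gene shares were not computed for the mean of both controls or the widest probe set. Without _x_at and _s_at probe sets, which removes DTYMK, the median between the controls was -0.11. Centring each array, the mean of probe sets, probe sets naming several genes and, chosen after seeing the data, the difference of gene medians per array moved no member's value by 0.1. The other control was not run for siNT minus DMSO, where no other exists. The cause of these shifts was not tested.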
